A study of Homo sapiens with 66 samples.

Results

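The 8 early genes described here are EGR1, EGR2 and EGR3, NR4A1, NR4A2 and NR4A3, and IER2 and IER3, chosen by their symbols out of 57992 gene identifiers counted in each library. RNA was sequenced from 11 acute myeloid leukaemia (AML) cell lines, F36P, HL60, KASUMI1, MOLM13, MONOMAC6, MV411, NB4, NOMO1, OCIAML2, OCIAML3 and THP1. Each line was kept untreated in medium or was given etoposide, an inhibitor of topoisomerase II that leaves DNA double-strand breaks, for 24 h. The concentration was the midpoint of viability for that line, from a curve fitted to the study's viability assay. For F36P the fitted midpoint lay above the highest concentration listed for that assay. Each of the 22 groups has 3 libraries, 66 in all, and each library holds RNA pooled from 3 wells of a plate. Every line is an established line grown alone, so a cell line stands for 1 leukaemia and not for a subtype. By the study's list of culture conditions, F36P was grown with GM-CSF, and MONOMAC6 with insulin, pyruvate and non-essential amino acids. The labels do not say whether the 3 libraries of a group came from separate cultures, and the methods give 3 biological replicates as the general rule for experiments. P-values here measure the spread between these libraries, which may be technical in part.

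Immediate early genes are transcribed within minutes of a growth factor, stress or calcium signal without new protein synthesis, and their RNAs are short-lived. EGR proteins are zinc-finger transcription factors, of which EGR1 is best known in blood for its part in monocytic differentiation. NR4A proteins are orphan nuclear receptors with a constitutively active fold, and mice that lack both NR4A1 and NR4A3 develop acute myeloid leukaemia. IER2 is a small nuclear protein and IER3 (IEX-1) is a stress-induced protein with a part in cell survival. The transcription factors that switch these genes on act mainly through the serum response element, a CArG box bound by SRF, and through the cyclic AMP response element (CRE) bound by CREB.

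The genes are EGR1 (chr5:138465479-138469303, plus strand), EGR2 (chr10:62811996-62819167, minus strand), NR4A1 (chr12:52022832-52059507, plus strand), NR4A2 (chr2:156324437-156342348, minus strand), NR4A3 (chr9:99821855-99866891, plus strand), IER2 (chr19:13150411-13154911, plus strand) and IER3 (chr6:30743199-30744548, minus strand), in GRCh38 coordinates of gencode release 44, with EGR3 given by name only. Promoter windows of 300 bases, 250 before and 50 after a gene start, were taken from the RefSeq table of GRCh38.p14, which matched 5 of the 8 genes with 8 windows. EGR3, NR4A2 and IER3 had no entry in that table and no sequence is printed. The 250 bases before the start of EGR1 (chr5:138465229-138465478, plus strand) and of EGR2 (chr10:62816367-62816616, minus strand) are shown because both hold CArG boxes, which are in capitals.
EGR1: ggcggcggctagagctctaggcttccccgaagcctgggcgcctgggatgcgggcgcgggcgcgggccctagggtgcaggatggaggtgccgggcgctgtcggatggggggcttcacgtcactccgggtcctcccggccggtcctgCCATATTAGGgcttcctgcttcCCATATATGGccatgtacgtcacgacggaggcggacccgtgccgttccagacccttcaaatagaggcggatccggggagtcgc
EGR2: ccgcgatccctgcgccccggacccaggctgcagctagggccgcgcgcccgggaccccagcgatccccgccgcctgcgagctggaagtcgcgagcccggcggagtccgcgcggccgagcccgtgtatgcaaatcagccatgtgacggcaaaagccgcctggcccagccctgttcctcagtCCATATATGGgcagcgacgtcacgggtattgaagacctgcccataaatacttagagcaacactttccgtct
A CArG box was found in 1.29% of 35114 promoter windows of this length. EGR1 held 2 of them, beginning 105 and 83 bases before the start, and EGR2 held 1, beginning 71 bases before the start. The EGR1 window also held the EGR site GCGNGGGCG (9.43% of windows), which began 198 bases before the start. EGR2 has 3 windows, and the one printed starts inside the gene span given above. A second, at chr10:62818726-62819025, held the EGR site 8 bases after its start, and the third, at chr10:62819118-62819417 over the start of that span, held none of the motifs searched.

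The 250 bases before NR4A3 (chr9:99821635-99821884, plus strand) and IER2 (chr19:13150161-13150410, plus strand) are shown for the CRE core, TGACG on either strand, which is in capitals and is part of the full CRE.
NR4A3: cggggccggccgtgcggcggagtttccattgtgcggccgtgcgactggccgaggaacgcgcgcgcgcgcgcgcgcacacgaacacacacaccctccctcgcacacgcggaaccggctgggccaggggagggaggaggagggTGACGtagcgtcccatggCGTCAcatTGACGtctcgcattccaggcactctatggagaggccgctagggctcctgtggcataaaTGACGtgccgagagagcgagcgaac
IER2: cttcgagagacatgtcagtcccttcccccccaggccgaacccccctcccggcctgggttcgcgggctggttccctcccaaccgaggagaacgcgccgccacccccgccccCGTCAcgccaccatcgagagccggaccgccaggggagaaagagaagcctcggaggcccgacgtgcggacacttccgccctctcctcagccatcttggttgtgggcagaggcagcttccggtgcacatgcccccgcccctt
A CRE core was found in 24.6% of the windows. NR4A3 held 4, beginning 109, 91, 83 and 25 bases before the start, EGR1 and EGR2 held 2 each, and IER2 held 1. The start used for the NR4A3 window lies inside the gene span given above, and the last of its matches falls within that span. The full CRE TGACGTCA (1.85% of windows), the NBRE AAAGGTCA to which NR4A proteins bind (1.22%), the NF-kappa-B site (5.91%) and the p53 decamer (6.63%) were not found in any of the 8 windows on either strand, and the 2 windows of NR4A1 held none of the 7 motifs searched. These are matches of letters, and a window without a match says nothing about the factor.

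Reads on genes numbered from 17997404 to 24101670 per library, with a median of 20241014. The myeloid genes PTPRC, SPI1 and CD33 were at 30.6 CPM (reads on a gene scaled to a common library total) or more in the untreated cells of all 11 lines, and the erythroid genes GATA1 and KLF1 were highest in F36P, at 246 and 224 CPM. HBG2 was at 5255 CPM in F36P. Of 6 marker genes of T cells, B cells, epithelium and fibroblasts, CD3D reached 171 CPM in NOMO1 and EPCAM 77.0 CPM in KASUMI1, and the other 4 were at or below 6.49 CPM in every untreated line. These 6 moved with etoposide: 16 of 32 tested pairs of marker and line were called higher and 0 lower (median log2 fold change 1.05), led by the collagen gene COL1A1 in 7 of 8 lines. Their summed level ran from 0.567 to 183 CPM in untreated lines and from 0.749 to 238 CPM after etoposide, higher in 10 of 10 lines. At least 1 of the 6 was at 0 in 9 untreated lines and in 6 lines after etoposide (CD3D, CD3E and EPCAM in OCIAML3 both times), and their part in the results was not tested. The myeloid list gave 5 pairs called higher and 7 lower of 49, and the erythroid list 2 higher and 3 lower of 21. The etoposide libraries of OCIAML2, which the study set aside for the quality of the raw reads, were compared with untreated OCIAML2 apart from the other lines. In OCIAML2 no gene was called by edgeR's quasi-likelihood test, in which 456 of 13604 genes had an unadjusted p under 0.05. DESeq2 and edgeR's exact test called 0 as well. In bulk RNA, fewer cells of a kind and less RNA per cell cannot be told apart, in these values and in all that follow.

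The first question was how high each early gene stood before treatment. IER2 was the most abundant per length, with a median over the 11 lines of 20.5 CPM per kb of exon, from 8.84 in THP1 to 41.6 in F36P. EGR1 followed with a median of 5.49 CPM per kb, from 1.29 to 19.0. NR4A1 (median 0.798), NR4A2 (0.507), EGR2 (0.156), EGR3 (0.140) and NR4A3 (0.0188) were lower. IER3 is listed at a median of 0.0126 CPM per kb and is given no place in this order, because its 0s may not be levels, as GTF2H4 in the same region is listed at 0 in all 66 libraries. IER2 and EGR1 were at 1 CPM or more in 11 lines, NR4A2 in 10, NR4A1 in 9, EGR2 in 4, EGR3 in 3, and NR4A3 and IER3 in 0.

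The basal level differed between the lines at an adjusted p below 0.05 for the 7 members that could be tested, where 99.4% of 18130 genes did, so the test does not set these genes apart. For a pair of lines, a median of 67.2% of genes differed. EGR1 differed in 41 of 55 pairs, EGR2 in 37, EGR3 in 32, NR4A1 in 48, NR4A2 in 27, IER2 in 44 and IER3 in 10. NR4A3 had too few reads to be tested.

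EGR1, the founding EGR factor, was highest in untreated MONOMAC6, where the libraries gave 97.2, 52.7 and 29.1 CPM, with a mean of 59.7 ± 34.6 (SD, n = 3). It was lowest in OCIAML2, at 4.33, 4.32 and 3.5 CPM, where the mean was 14.7-fold lower. Between these came MOLM13 (40.4 ± 7.71), NOMO1 (31.6 ± 4.88), OCIAML3 (25.2 ± 2.28), NB4 (21.1 ± 12.7), F36P (17.2 ± 3.68), THP1 (14.8 ± 1.93), MV411 (9.33 ± 0.235), KASUMI1 (8.10 ± 4.42) and HL60 (4.88 ± 1.45 CPM). No line differed from its neighbour in this order past an adjusted p of 0.05 in the quasi-likelihood test, in 0 of 10 steps. The libraries of neighbouring lines overlapped except between THP1 and MV411 (adjusted p = 0.101), and a test that misses the threshold does not show that neighbours are alike.

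EGR2 and EGR3, the paralogues of EGR1, were high together in NOMO1 and MOLM13. EGR3 was at 16.8, 8.24 and 19.7 CPM in NOMO1 and at 3.68, 10.4 and 15.8 in MOLM13. These lines did not differ from each other (adjusted p = 0.0888), and MOLM13 differed from the next line, THP1, at 1.06 ± 0.229 CPM (n = 3, adjusted p = 2.99e-08). In the other lines EGR3 was at or below 0.844 CPM, and no read was counted in untreated OCIAML2. EGR2 was at 3.67 ± 1.06 CPM in NOMO1, 3.62 ± 2.36 in MOLM13, 2.52 ± 1.80 in NB4 and 2.08 ± 0.298 in MONOMAC6. MONOMAC6 was the only line that differed from the next one below it, THP1 at 0.961 ± 0.488 CPM (adjusted p = 0.0301).

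NR4A1 (NUR77) ranged from 24.0, 12.3 and 26.1 CPM in NOMO1 down to 0.560, 0.5 and 0.659 CPM in THP1, a 36.3-fold span of the means. MONOMAC6 (17.6 ± 2.19) and NB4 (11.7 ± 3.5) differed from each other (adjusted p = 0.00837), as did OCIAML3 (9.75 ± 0.601) and MOLM13 (6.27 ± 1.9, adjusted p = 0.0121), MV411 (4.76 ± 0.239) and F36P (2.91 ± 0.835, adjusted p = 0.0168), and KASUMI1 (2.78 ± 0.242) and OCIAML2 (0.943 ± 0.0260, adjusted p = 0.000231). The other 6 neighbours in the order did not differ past that threshold.

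NR4A2 (NURR1) held a narrower range. It was at 3.62, 3.10 and 3.19 CPM in THP1, the line with the lowest NR4A1, and at 0.921, 0.521 and 0.812 CPM in NB4, 4.40-fold lower. NB4 differed from its neighbour F36P (1.54 ± 0.329 CPM, adjusted p = 0.00126), and no other neighbours differed. NR4A3 (NOR1) was at most 0.446 ± 0.0199 CPM, in NB4, and untreated OCIAML3 had no read.

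IER2 was highest in F36P, at 152, 121 and 110 CPM, and lowest in THP1, at 24.2, 26.0 and 31.4 CPM. NB4 and HL60 (106 ± 10.4 and 82.0 ± 17.0 CPM, adjusted p = 0.0152), NOMO1 and OCIAML3 (59.8 ± 6.73 and 46.6 ± 1.26, adjusted p = 0.0178) and OCIAML2 and THP1 (45.1 ± 4.13 and 27.2 ± 3.76, adjusted p = 2.44e-05) were the neighbours that differed. IER3 had more than 5 untreated reads in MONOMAC6 alone, with 0.540, 0.812 and 0.660 CPM, and MOLM13 below it had 5 reads in 3 libraries (adjusted p = 0.000874). IER3 is listed at 0 in the untreated libraries of HL60, KASUMI1, MV411, NB4 and OCIAML3. The gene lies in the major histocompatibility region, and there its neighbours FLOT1, 467 bases away, and TUBB had reads in all 66 libraries, while GTF2H4, a subunit of the general factor TFIIH, is listed at 0 in all 66. A 0 for IER3 is therefore given as listed, and no limit is drawn from it.

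The second question was how the early genes stood after 24 h of etoposide. Of the tested pairs of gene and line over all genes, 11.1% rose more than 2-fold at an adjusted p below 0.05 and 3.96% fell so. Of the 57 pairs of the early genes that could be tested, 13 rose and 0 fell by these limits. The other 23 pairs had too few reads. These rises were in F36P, HL60, MONOMAC6, NB4 and THP1, and the members that rose differed from line to line. NR4A1 in F36P (7.84-fold) and IER3 in MONOMAC6 (7.66-fold) rose most. IER2, the most abundant, never changed 2-fold.

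**Figure D1:**
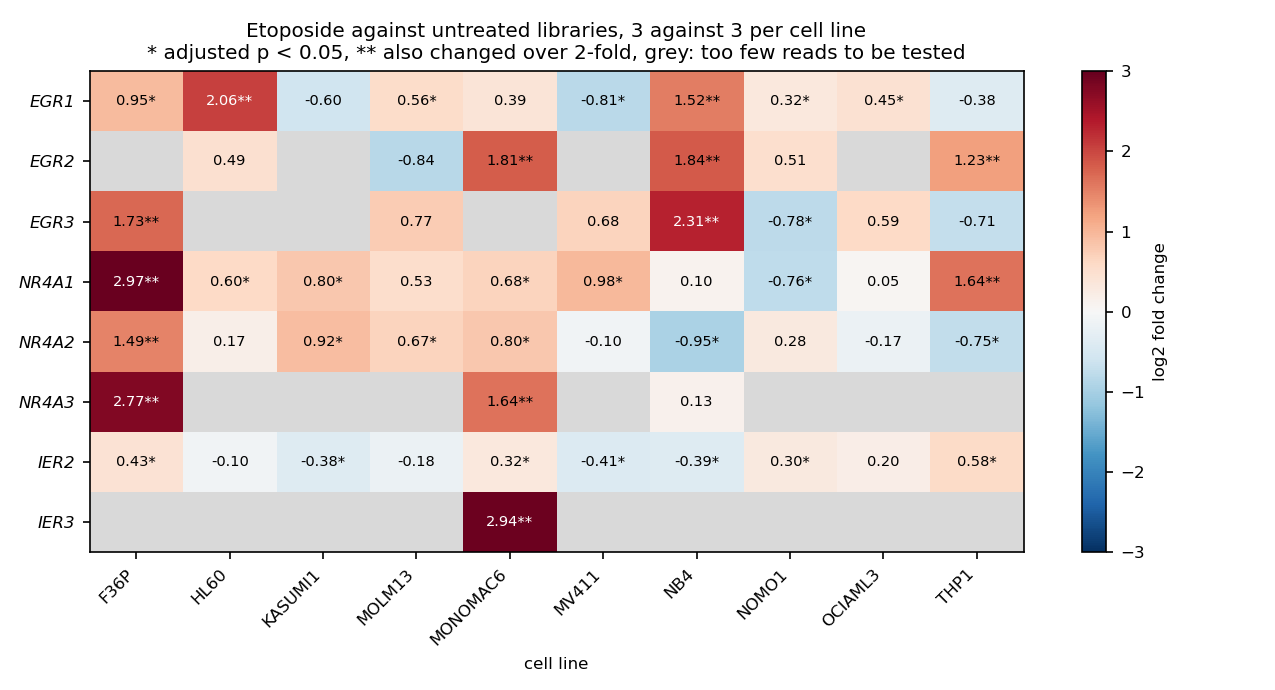
Log2 fold change after etoposide for the 8 early genes (rows) in 10 cell lines (columns), 3 etoposide against 3 untreated libraries per line, from edgeR. The 13 cells with 2 asterisks are all positive, from 1.23 to 2.97, and 23 grey cells had too few reads to be tested.

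In F36P 4 of 6 tested members were called higher (adjusted p below 0.05 and a change of more than 2-fold), where 24.3% of all genes tested were. In MONOMAC6 3 of 7 were called higher (8.53% of all genes), in NB4 3 of 7 (13.2%), in THP1 2 of 6 (6.38%) and in HL60 1 of 5 (5.34%). In KASUMI1 0 of 4 were called (14.6%), in MOLM13 0 of 6 (8.59%), in MV411 0 of 5 (12.5%), in NOMO1 0 of 6 (8.34%) and in OCIAML3 0 of 5 (7.18%). No member was called lower, where 6.67% of genes were in F36P, 1.24% in HL60, 6.52% in KASUMI1, 3.37% in MOLM13, 4.47% in MONOMAC6, 2.63% in MV411, 4.82% in NB4, 4.43% in NOMO1, 1.36% in OCIAML3 and 3.46% in THP1. With the adjusted p alone, members were higher in 6 of 6 pairs in F36P (35% of genes higher, 25% lower), 2 in HL60 (17.5%, 15%), 2 in KASUMI1 with 1 lower (31.5%, 28.6%), 2 in MOLM13 (28.1%, 28.1%), 6 in MONOMAC6 (31.8%, 30.5%), 1 in MV411 with 2 lower (33.5%, 30.4%), 3 in NB4 with 2 lower (31%, 28.7%), 2 in NOMO1 with 2 lower (28.8%, 23.9%), 1 in OCIAML3 (22.4%, 17.7%) and 3 in THP1 with 1 lower (16.1%, 16%). In F36P, HL60, MOLM13, MONOMAC6 and OCIAML3 no member was lower by this measure. In MOLM13, where same-numbered libraries deviated together, a fit with the replicate number as a block put 4 members higher and 1 lower past the adjusted p. Of the 80 pairs 23 were not tested, and a member with few untreated reads passed the filter only through its reads after etoposide, as NR4A3 did in F36P with 8 and 66 reads, so these counts are descriptions. In OCIAML2 4 members were tested, 0 were called (0% of genes, and 0.0221% by the adjusted p alone), and the smallest unadjusted p among them was 0.16 in the quasi-likelihood test.

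**Figure D2:**
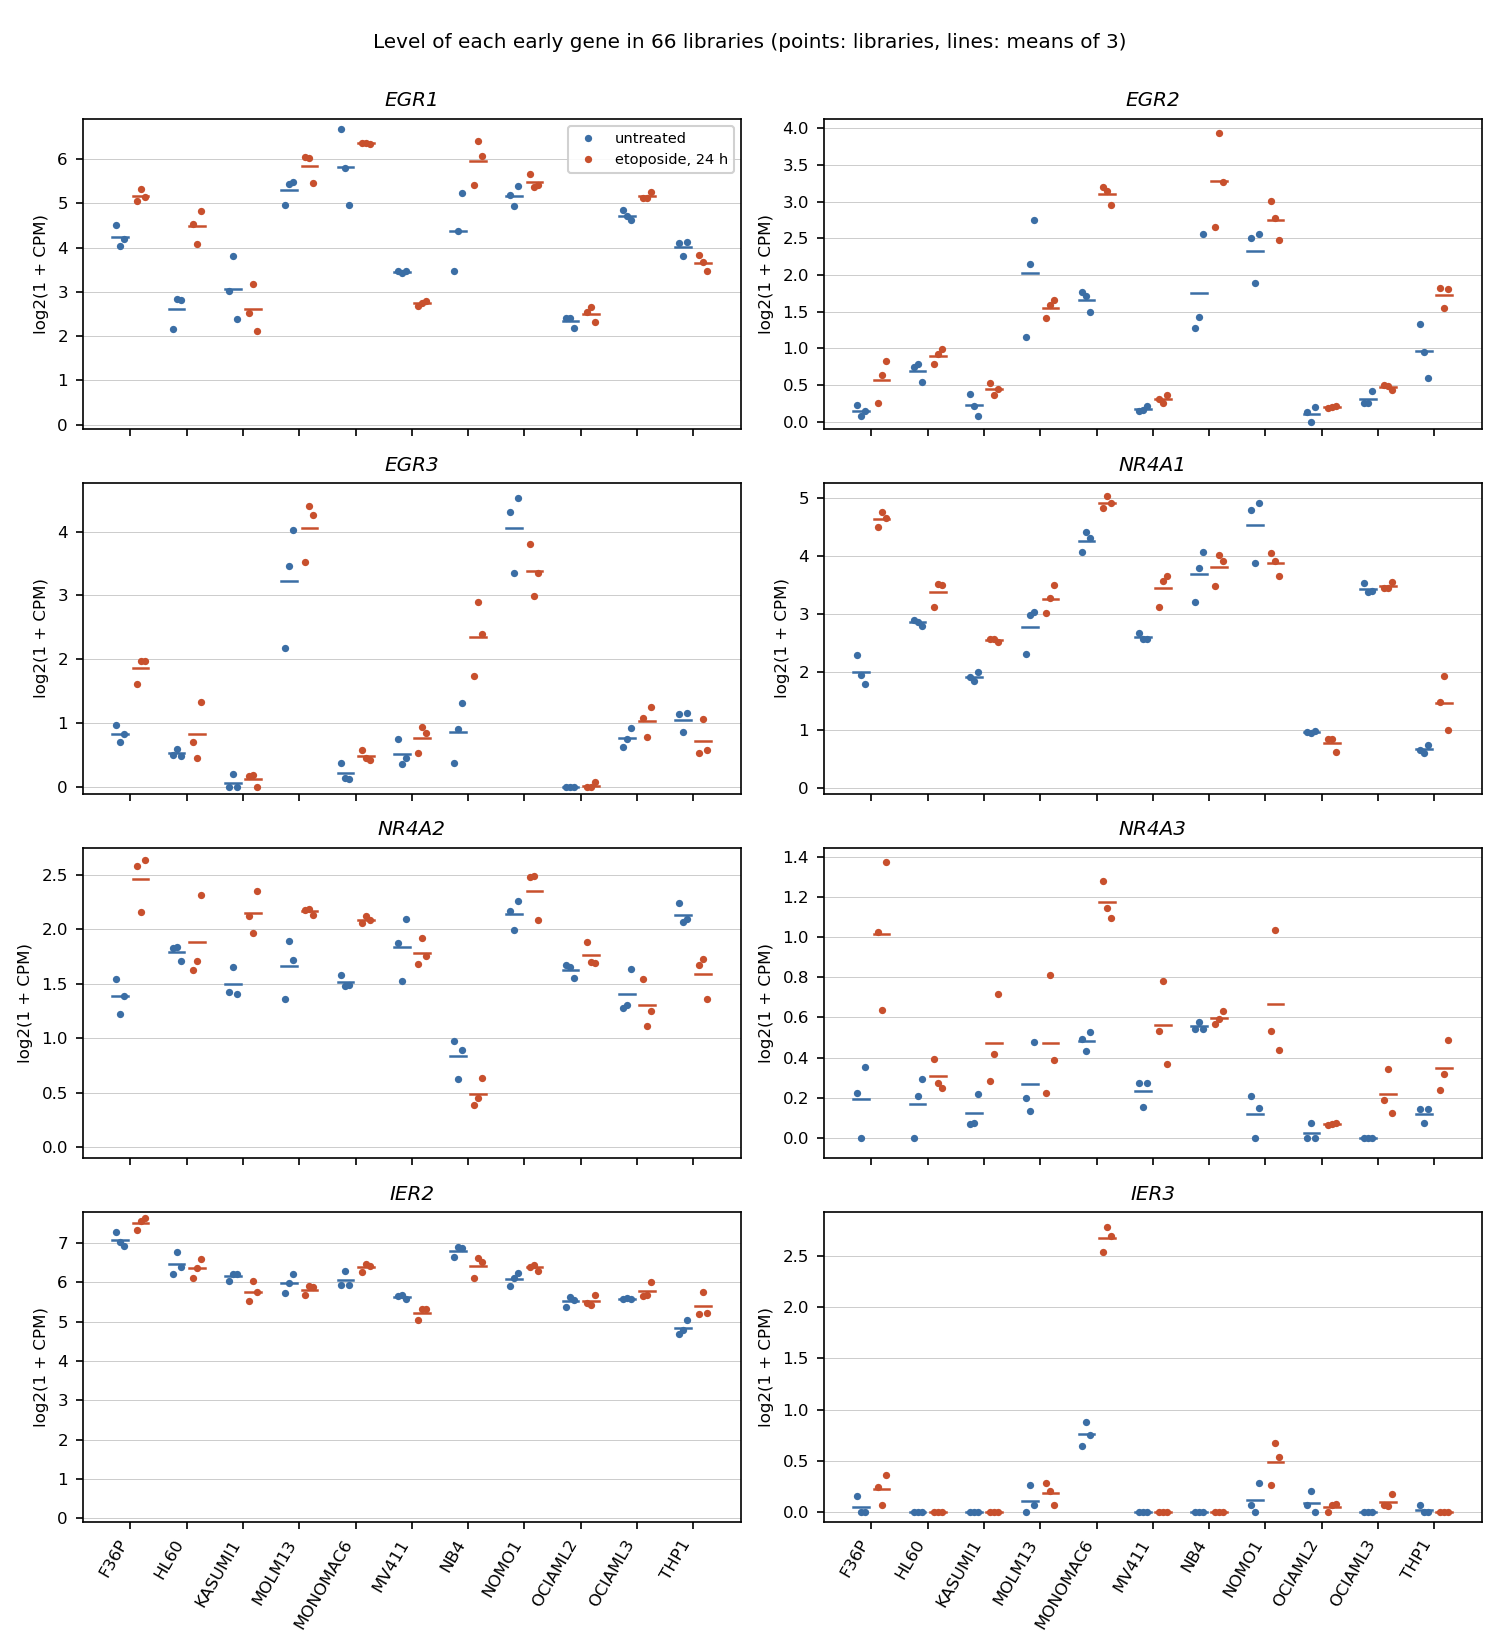
Level of each early gene in all 66 libraries, as log2(1 + CPM) normalized within the cell line; each panel has its own axis, blue points are the 3 untreated and orange points the 3 etoposide libraries of a line, and bars are their means. The groups stand apart for NR4A1 in F36P and IER3 in MONOMAC6, and untreated EGR1 in MONOMAC6 and NB4 is widely spread.

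EGR1 rose in HL60, from 3.44, 6.20 and 6.07 CPM to 22.2, 15.9 and 27.3 CPM. Every etoposide library of HL60 lay above every untreated one, with a log2 fold change of 2.06 ± 0.224 (SE, 3 against 3 libraries, adjusted p = 3.08e-05). It also rose in NB4, from 10.2, 19.8 and 36.8 to 41.9, 83.2 and 66.1 CPM, again without overlap (log2 fold change 1.52 ± 0.314, adjusted p = 0.000664). The untreated libraries of NB4 lay far apart, and the call held with the replicate number as a block.

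Smaller changes of EGR1 passed the adjusted p without reaching 2-fold. It was higher in F36P (log2 fold change 0.95), MOLM13 (0.56), OCIAML3 (0.45) and NOMO1 (0.32). The difference in F36P passed 2-fold with library size alone (1.19), and that in NOMO1, at an adjusted p of 0.049, missed the threshold with RLE scaling (0.0677), DESeq2 (0.0734), a replicate block (0.0592) and the fit of 60 libraries (0.453). EGR1 was lower in MV411, where untreated libraries gave 10.1, 9.75 and 10.1 CPM and etoposide libraries 5.41, 5.74 and 5.89 CPM (log2 fold change -0.81 ± 0.116, adjusted p = 2.81e-06). In the fit of 60 libraries the adjusted p of EGR1 was 0.0748 in MV411, 0.0861 in MOLM13, 0.296 in OCIAML3 and 0.00396 in F36P. In KASUMI1 (-0.60, adjusted p = 0.220), MONOMAC6 (0.39, 0.267) and THP1 (-0.38, 0.0721) the groups overlapped and the test was not passed. MONOMAC6, the line with the highest basal EGR1, had untreated values of 101, 54.9 and 30.3 CPM and etoposide values of 81.6, 81.7 and 79.7 CPM.

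EGR2, which takes part in macrophage differentiation, rose in 3 lines. In MONOMAC6 it went from 2.40, 2.29 and 1.81 to 8.21, 7.85 and 6.73 CPM (log2 fold change 1.81 ± 0.146, adjusted p = 6.80e-07). In NB4 it went from 1.42, 1.69 and 4.87 to 5.31, 14.2 and 8.63 CPM (1.84 ± 0.381, adjusted p = 0.000702), and in THP1 from 1.52, 0.927 and 0.519 to 2.53, 1.92 and 2.51 CPM (1.23 ± 0.310, adjusted p = 0.00557). The groups did not overlap in these 3 lines, and the THP1 call was lost without untreated replicate 3 (log2 fold change 0.95). In MOLM13 the spread between untreated libraries, 1.23, 3.46 and 5.75 CPM, was larger than the difference from 1.66, 2.01 and 2.15 CPM (adjusted p = 0.123). With the replicate block it passed the adjusted p (-0.77, adjusted p = 0.0259), and without untreated replicate 1 it was called lower (-1.25).

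EGR3 rose in F36P and NB4. In F36P the libraries gave 0.958, 0.638 and 0.779 CPM untreated and 2.08, 2.93 and 2.95 CPM after etoposide (log2 fold change 1.73 ± 0.257, adjusted p = 0.000243). In NB4 they gave 0.305, 0.873 and 1.49, and 2.35, 6.43 and 4.27 CPM (2.31 ± 0.411, adjusted p = 0.000188), so all 3 EGR genes rose in NB4. In NOMO1, where EGR3 was highest before treatment, it was lower after etoposide, at 18.8, 9.18 and 22 against 12.9, 6.97 and 9.15 CPM, with overlapping groups (log2 fold change -0.78 ± 0.279, adjusted p = 0.0333). Without untreated replicate 2, the low library, it was called lower (-1.08). It missed the threshold with DESeq2 (adjusted p = 0.124) and without untreated replicate 1 (0.0961) or 3 (0.176). The same held without etoposide replicate 2 (0.0639) or 3 (0.0525). In MOLM13, the other line with high EGR3, 3.53, 9.99 and 15.2 CPM untreated overlapped with 10.6, 20.1 and 18.1 CPM after etoposide (0.77 ± 0.394, adjusted p = 0.122). With the replicate block it passed the adjusted p below 2-fold (0.85, adjusted p = 0.00147). It was called higher without untreated replicate 3 (1.26) or etoposide replicate 1 (1.01).

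NR4A1 rose most in F36P. Untreated libraries gave 3.89, 2.84 and 2.45 CPM and etoposide libraries 21.7, 26.2 and 24.3 CPM, far apart and with little spread (log2 fold change 2.97 ± 0.188, adjusted p = 2.42e-06). In THP1, the line with the lowest basal level, it went from 0.576, 0.515 and 0.675 to 1.78, 2.81 and 0.984 CPM (1.64 ± 0.375, adjusted p = 0.00288). The rises in MV411 (0.98), KASUMI1 (0.80), MONOMAC6 (0.68) and HL60 (0.60) passed the adjusted p and were under 2-fold. The MV411 rise lay near that limit and was called with library size alone (1.10) and in the fit of 60 libraries (1.02). It was also called without untreated replicate 1 (1.01) or etoposide replicate 1 (1.125). In MOLM13 the difference of 0.53 passed with the replicate block (adjusted p = 0.00438) and not without it (0.0630). NOMO1, the line with the highest basal NR4A1, had 26.9, 13.7 and 29.3 CPM untreated and 15.6, 14 and 11.5 CPM after etoposide (log2 fold change -0.76 ± 0.226, adjusted p = 0.0135). The groups overlapped, and the log2 fold change was -1.03 without untreated replicate 2. The difference missed the threshold with DESeq2 (adjusted p = 0.0506) and without untreated replicate 1 (0.0528) or 3 (0.0811).

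NR4A2 rose more than 2-fold only in F36P, from 1.92, 1.33 and 1.61 to 5.00, 3.48 and 5.22 CPM (log2 fold change 1.49 ± 0.230, adjusted p = 0.000303). It was higher by less in KASUMI1 (0.92), MONOMAC6 (0.80) and MOLM13 (0.67). The KASUMI1 difference was also called, above 2-fold, with library size alone (1.095) and without untreated replicate 2 (1.04) or etoposide replicate 2 (1.025). NR4A2 was lower in NB4, from 0.965, 0.546 and 0.859 to 0.305, 0.370 and 0.551 CPM (-0.95 ± 0.379, adjusted p = 0.0409). The NB4 difference missed the threshold with library size alone (adjusted p = 0.101), DESeq2 (0.14) and no filter on low counts (0.0537). It also missed without untreated replicate 1 (0.157) or 3 (0.0865) or etoposide replicate 1 (0.133) or 2 (0.0984). It was called lower without untreated replicate 2 (-1.16) or etoposide replicate 3 (-1.22). NR4A2 was also lower in THP1, from 3.72, 3.19 and 3.27 to 2.18, 2.32 and 1.57 CPM (-0.75 ± 0.221, adjusted p = 0.0148). The THP1 difference missed the threshold without untreated replicate 1 (0.0778) or etoposide replicate 3 (0.0765). In THP1 NR4A1 was thus higher and NR4A2 lower in the same libraries.

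NR4A3 was scarce in every line and its mean was higher after etoposide in 10 of 10. It was called in F36P, from 0.169, 0 and 0.278 to 1.04, 0.555 and 1.59 CPM (log2 fold change 2.77 ± 0.641, adjusted p = 0.00377), and in MONOMAC6, from 0.408, 0.348 and 0.441 to 1.43, 1.21 and 1.14 CPM (1.64 ± 0.271, adjusted p = 0.000243). In NB4 the level stayed within 0.457 to 0.551 CPM in all 6 libraries (0.13 ± 0.361, adjusted p = 0.784). The other 7 lines were not tested for lack of reads: KASUMI1 had 5 reads untreated and 26 after etoposide, MV411 10 and 36, NOMO1 5 and 37, THP1 5 and 18, MOLM13 13 and 24, and HL60 7 and 14. In 1 fit of all 60 libraries, which tests more genes, NR4A3 was also called higher in KASUMI1 (19.6% of genes), MV411 (12.5%), NOMO1 (7.59%) and OCIAML3 (6.35%). EGR2 was called higher in F36P by the same fit (6 and 31 reads, log2 fold change 2.14, adjusted p = 0.0343). That fit called 20 pairs of member and line higher, where 4.99% (HL60) to 28.3% (F36P) of genes were. OCIAML3 had 0 and 11 reads, at least 3.47-fold higher against a floor of 3 reads over the 3 untreated libraries, for counting error only.

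A test that keeps such genes was added after seeing the data. The difference of the mean log2(1 + CPM) was taken in each of 10 lines for the 30551 genes with at least 10 reads in their 60 libraries, and an exact sign-flip permutation over lines was run. NR4A3 had a mean difference of 0.357 ± 0.251 (SD, n = 10 lines), from 0.0423 to 0.820, with an exact two-sided p of 0.00195 and an adjusted p of 0.0215. A sign flip of 10 values of 1 sign always gives this p, the smallest that 10 lines allow, so it restates the 10 of 10 above and adds no evidence to it. By this test 9.81% of genes were called higher and 8.20% lower, and 1341 genes were higher in all 10 lines. EGR2 and NR4A1 were higher in 9 of 10 lines each (exact permutation, adjusted p = 0.102 for both), and EGR1, EGR3, NR4A2, IER2 and IER3 had adjusted p from 0.170 to 0.860.

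IER2 changed little. Its log2 fold changes lay between -0.41 and 0.58, higher in 5 lines and lower in 5. Past the adjusted p it was higher in THP1, from 24.9, 26.8 and 32.2 to 35.8, 53.2 and 36.4 CPM (0.58 ± 0.162, adjusted p = 0.0108), in F36P (0.43), MONOMAC6 (0.32) and NOMO1 (0.30), and lower in MV411, from 49.7, 50.1 and 46.4 to 32.0, 39.1 and 39.0 CPM (-0.41 ± 0.0781, adjusted p = 0.000102), in NB4 (-0.39) and KASUMI1 (-0.38). The differences in NB4 and KASUMI1 missed the threshold with library size alone (adjusted p = 0.225 and 0.151). In the fit of 60 libraries IER2 passed it only in THP1 (adjusted p = 0.00134) and F36P (0.00447). The F36P difference missed it with DESeq2 (0.0513) and with a replicate block (0.0542).

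IER3 rose in MONOMAC6, from 42 to 360 reads. The untreated libraries gave 0.561, 0.846 and 0.687 CPM and the etoposide libraries 4.82, 5.90 and 5.46 CPM (log2 fold change 2.94 ± 0.190, adjusted p = 1.15e-07). Elsewhere it was too scarce to be tested within a line, with 5 reads untreated and 25 after etoposide in NOMO1, 2 and 11 in F36P, and 5 and 8 in MOLM13. The fit of all 60 libraries called it higher in NOMO1 as well (log2 fold change 2.16, adjusted p = 0.0159). It is listed at 0 before and after etoposide in HL60, KASUMI1, MV411 and NB4.

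The third question was whether the response depended on the line. Each line had its own etoposide concentration, so line and concentration cannot be told apart here. An interaction of line and treatment over the 60 libraries of 10 lines passed an adjusted p of 0.05 for 7 of the 8 members, where 74.5% of 19974 genes did. The adjusted p was 1.31e-12 for NR4A1, 9.66e-08 for NR4A2, 2.26e-06 for EGR1, 4.59e-05 for IER2, 0.000149 for EGR3, 0.000166 for EGR2 and 0.0423 for NR4A3. For IER3 it was 0.582, with most lines at or near 0 reads. NR4A3 lost the threshold without F36P (0.0548). Over 10 lines taken as 10 values, the mean log2 fold change was 0.76 ± 1.00 for NR4A1 (SD, higher in 9 of 10 lines, exact permutation p = 0.0293, adjusted p = 0.0628), 0.44 ± 0.91 for EGR1 (7 of 10, adjusted p = 0.244), 0.24 ± 0.76 for NR4A2 (6 of 10, adjusted p = 0.448) and 0.04 ± 0.37 for IER2 (5 of 10, adjusted p = 0.805), where 17.6% of 10588 genes were called higher and 25.7% lower.

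EGR1, EGR2, EGR3 and NR4A1 varied between libraries of the same group more than genes of a like level usually did. The SD of log2(1 + CPM) within groups, pooled over the 22 groups, was 0.389 for EGR1, beside a median of 0.132 among the 500 genes nearest in mean level, 0.312 for EGR2 (0.166), 0.358 for EGR3 (0.170) and 0.251 for NR4A1 (0.154). It was 0.187 for IER2 (0.121) and 0.185 for NR4A2 (0.171). The deviations from the group mean went together across the 66 libraries in several pairs of members, with a Pearson r of 0.744 for EGR2 and EGR3, 0.729 for EGR3 and NR4A1, 0.579 for EGR2 and NR4A1, 0.567 for NR4A1 and IER2 and 0.516 for EGR1 and EGR3. For EGR2 and EGR3 the r was 0.835 in the 33 untreated and 0.593 in the 33 etoposide libraries, and 0.602 in the 54 libraries without NOMO1 and MOLM13, where EGR3 was high. For EGR2 and NR4A1 it was 0.690, 0.393 and 0.386. Not all of the 28 pairs of members did so: EGR1 and NR4A1 had an r of 0.328, NR4A1 and NR4A3 of 0.0379, EGR1 and IER3 of 0.0402 and EGR1 and NR4A3 of -0.0454. The 3 deviations of a group sum to 0 and the genes of a library share its total, so these are descriptions. The untreated library of NOMO1 with the lowest NR4A1 (12.3 CPM) also had the lowest EGR3 (8.24) and EGR2 (2.45), and in MOLM13 the library with the lowest EGR3 (3.68) also had the lowest EGR1, EGR2, NR4A1 and IER2.

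Other genes of the same pathways were taken from lists that were chosen with earlier results of these data known. They were counted as pairs of gene and line over the 10 lines. Of all tested pairs, 11.1% were called higher and 4.0% lower, with a median log2 fold change of 0.01. Of the EGR corepressors, NAB1 was not called in any line (log2 fold change from -0.60 to 0.56). NAB2, a known EGR1 target that restrains EGR activity, was called higher in F36P, from 39.9 ± 4.49 to 92.7 ± 5.57 CPM (n = 3, log2 fold change 1.22 ± 0.125, adjusted p = 2.62e-05), and its 0.98 in NOMO1, 0.59 in HL60, 0.57 in THP1 and 0.54 in MONOMAC6 passed the adjusted p below 2-fold. EGR4, the fourth EGR gene, had too few reads in 6 of the 10 lines and was called higher in HL60 (0.305 ± 0.130 to 2.45 ± 0.386 CPM, log2 fold change 2.99), NOMO1 (2.72) and THP1 (1.40). Of 10 textbook EGR1 targets, 29 of 79 pairs were called higher and 0 lower (median 0.46), led by ICAM1 in 8 of 10 lines tested, GDF15 in 7 of 7 and FN1 in 6 of 6. GDF15, which is also a p53 target, had log2 fold changes from 3.67 to 7.42. In MV411 it was at 0.0174 CPM untreated and 2.06 CPM after etoposide, and passed the filter only through its etoposide reads. Lines where GDF15 or FN1 had too few reads are left out of these counts, so the counts are descriptions.

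Partners of the NR4A receptors and of CREB were called higher in 4 of 70 pairs and lower in 0 (median 0.05). CREM, which encodes CREB-family repressors, was called in 3 of 10 lines, among them F36P, where it went from 15.6 ± 2.94 to 81.2 ± 7.98 CPM (log2 fold change 2.38). RXRA, a receptor that pairs with NR4A1 and NR4A2, was called in F36P (1.58). SRF and its cofactors were called in 0 of 60 pairs by edgeR (median -0.09), and SRF itself was lower past the adjusted p, by less than 2-fold, in 6 of 10 lines. Phosphatases and other feedback regulators of MAP kinases were called higher in 32 of 111 pairs and lower in 6 (median 0.42), with DUSP4 and DUSP5 higher in 7 of 10 lines each, DUSP4 lower in KASUMI1 (-1.11), DUSP1 higher in 5, and SPRY1 lower in 3 of 9. Of 30 other early genes, 122 of 272 pairs were called higher and 10 lower (median 0.81). BTG2, an antiproliferative p53 target, was higher in 10 of 10 lines, and the AP-1 family genes ATF3 and JUN in 8 of 10 each, with JUN called lower in MOLM13 (-1.25), while MYC was lower in 6 of 10. The 8 early genes gave 13 of 57 pairs (22.8%) higher and 0 lower, with a median of 0.49. The lists differ in how many members passed the filter on low counts, and their differences were not tested.

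For the 4 members tested in all 10 lines, the genes with the most similar pattern of log2 fold change, by Pearson r over 10 lines among 10588 genes, included FNBP4 for EGR1 (r = 0.861), C16orf74, ALKBH5 and MT2A for NR4A1 (0.888 to 0.905), CRTC2, KIF3A and SNX14 for NR4A2 (0.927 to 0.945) and GZF1, PELO and MTRF1L for IER2 (0.910 to 0.974). For the basal level over 11 lines, among 13669 genes, they included BCL3, SOX13 and WFS1 for EGR1 (0.826 to 0.919), GBP2 and EIF4E3 for EGR2 (0.901 to 0.948), CHRNA6, SLC35F1 and DYNC1I1 for EGR3 (0.935 to 0.948), FNBP1 and MGRN1 for NR4A1 (0.891 to 0.945), CHKB, CCDC88B and FAM98C for NR4A2 (0.880 to 0.934) and GPATCH3, ORC2 and ZMYND8 for IER2 (0.938 to 0.947). These r were among the 3 highest for each member, and they are descriptions. An r compares the pattern over lines and not the direction of change. The log2 fold change of FNBP4 ran from -0.454 to -0.038 and that of ALKBH5 from -0.626 to -0.0471, so both were lower in all 10 lines. Between members, the basal level of EGR1 and EGR2 had an r of 0.709, EGR2 and EGR3 of 0.742 and NR4A2 and IER2 of -0.676 over the 11 lines.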

How the data were processed

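The kit was a stranded one for mRNA. By the methods and labels, the authors ran FastQC 0.11.5 on the reads and STAR 2.5.3a on GRCh38.p7 (gencode release 25), took STAR's counts and analysed them with edgeR 3.20.1. The deposited values are raw counts of reads per gene in 1 unnamed column. Of the 756 genes that an opposite-strand exon of gencode 44 covers entirely, 484 have reads. The counts were made on release 25, which may lack some of these exons. The values therefore do not settle whether reads were counted by strand. The annotated antisense neighbours of the members had at most 0.480 CPM.

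Names came from gencode 44 for 56948 of 57992 identifiers; 45 pseudoautosomal copies were left out. In R 4.3.3 with edgeR 4.0.16, each line's 3 etoposide and 3 untreated libraries were compared (filterByExpr with minimum count 10 and total 15, TMM, quasi-likelihood test, Benjamini-Hochberg over all genes tested); called means adjusted p below 0.05 and a change above 2-fold. CPM was normalized within a line for changes and over 33 untreated libraries for basal levels; the pseudocount was 1. The exact test and DESeq2 1.42.0 were alternatives. SE is the log2 fold change over the root of F. The depth allows a group at 0 reads up to 3 reads. Scripts were tested on simulated data. Figures used matplotlib 3.10.9 in Python 3.11.15.

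Members, lists and motifs were chosen with earlier results of these data known. Named besides the 8 members were NAB1, NAB2 and, per list, up to 3 genes called the same way in most lines, ties going to the larger median change. The 3 genes most similar to a member were named too, except a few that are not reported here. Same-numbered libraries deviated together in all 3 pairs (r above 0.1) in MOLM13, NB4 and OCIAML2, the lowest r being 0.115, and not in the other lines. No 2 libraries of a group agreed within sampling noise (lowest chi-square per degree of freedom 2.05 in 66 pairs).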

Additional observations from a re-analysis of the deposited data

Results flagged for a closer look

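The etoposide change of 7 of the 8 early genes differed between the 10 lines in the interaction test of edgeR over 60 libraries. The adjusted p was 2.26e-06 for EGR1, 0.000166 for EGR2, 0.000149 for EGR3, 1.31e-12 for NR4A1, 9.66e-08 for NR4A2, 0.0423 for NR4A3 and 4.59e-05 for IER2, where 74.5% of all genes passed the same test. Each line had its own etoposide concentration, and line and concentration cannot be told apart. In the fits of single lines, NR4A1 ranged from a log2 fold change of -0.76 in NOMO1 to 2.97 in F36P. EGR1 ranged from -0.81 in MV411 to 2.06 in HL60, and NR4A2 from -0.95 in NB4 to 1.49 in F36P. IER2 ranged from -0.41 in MV411 to 0.58 in THP1. EGR2 ranged from -0.84 in MOLM13 to 1.84 in NB4 among the 6 lines tested. EGR3 ranged from -0.78 in NOMO1 to 2.31 in NB4 among 7, and NR4A3 from 0.13 in NB4 to 2.77 in F36P among 3. In the fit of 60 libraries, which the interaction used, EGR2 reached 2.14 in F36P (6 and 31 reads). There NR4A3 reached 4.81 in OCIAML3 (0 and 11 reads). NR4A3 passed the interaction test by the least and missed it at 0.055 with a replicate block.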

How the results depend on the processing

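Of 186 values that the 13 calls had under alternatives, 185 kept the call, 0 turned direction, and EGR2 in THP1 lost it without untreated replicate 3 (log2 fold change 0.95). The number of pairs called higher was 13. It was 6 with a mean of at least 5 CPM, where 9 of the 13 had no value, 4 kept the call and 2 were gained (EGR1 in F36P, 1.10, and NR4A1 in MV411, 1.02), 20 in 1 fit of 60 libraries, which tests more pairs, and 28 with no fold change minimum. Pairs called lower numbered 0, 8 with no fold change minimum and 0 to 3 when 1 library of each line was left out. Called lower then were EGR3 and NR4A1 in NOMO1 and NR4A2 in NB4 without untreated replicate 2 (-1.08, -1.03 and -1.16), EGR2 in MOLM13 without untreated replicate 1 (-1.25), EGR3 in NOMO1 without etoposide replicate 1 (-1.08), EGR1 in KASUMI1 and EGR3 in THP1 without etoposide replicate 2 (-1.01 and -1.17) and NR4A2 in NB4 without etoposide replicate 3 (-1.22). Higher calls were gained without untreated replicate 1 (EGR1 in F36P, 1.05, and NR4A1 in MV411, 1.01), 2 (NR4A2 in KASUMI1, 1.04) or 3 (EGR3 in MOLM13, 1.265). Without etoposide replicate 1 they were EGR1 in F36P (1.01), EGR3 in MOLM13 (1.01) and NR4A1 in MV411 (1.125), and without 2 NR4A2 in KASUMI1 (1.025). Library size alone gained EGR1 in F36P (1.19), NR4A1 in MV411 (1.10) and NR4A2 in KASUMI1 (1.095). Over lines, 0 members passed, 1 (NR4A1, adjusted p = 0.0362) with library size alone, 1 in the added test of log2(1 + CPM) (NR4A3), and 0 to 1 with replicates left out (NR4A1 without replicate 3, adjusted p = 0.036). Basal differences were called for 7 members, and for 4 with a mean of at least 5 CPM, which keeps 4. The interaction was called for 7; without 1 replicate number NR4A3 gave 0.116 to 0.169, and EGR2 0.0644 without replicate 2.

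With a replicate block 13 pairs were called higher and 0 lower, and no 2-fold call of a pair changed. By the adjusted p alone 5 pairs were gained with the block (EGR2, EGR3 and NR4A1 in MOLM13, and EGR1 in KASUMI1 and MONOMAC6) and 3 lost (EGR1 in NOMO1, IER2 in F36P and NOMO1), of which MOLM13 alone is a line with paired numbers. The counts of genes called moved by at most 1.05-fold (2483 and 2488 in NB4, 1640 and 1668 in MOLM13); the interaction then passed for 6 members, NR4A3 being at an adjusted p of 0.055. Scaling by library size alone raised the median log2 fold change of all genes by 0.249 in F36P, 0.206 in NB4, 0.175 in KASUMI1, 0.128 in MV411, 0.117 in MONOMAC6 and 0.103 in HL60, and the share of calls that were higher went from 69.1% to 81.1% in KASUMI1 and from 73.2% to 85.7% in NB4. Signs turned in uncalled values near 0: with library size alone NR4A2 in MV411 (0.032), IER2 in HL60 (0.0025) and IER2 in OCIAML2 (0.0051), and over lines IER2 without F36P (-0.0047). With 1 library left out at a time the log2 fold change spanned 0 for NR4A1 in NB4 (-0.13 to 0.30), NR4A2 in HL60 (-0.17 to 0.35), MV411 (-0.28 to 0.10) and OCIAML3 (-0.40 to 0.015), and IER2 in HL60 (-0.22 to 0.072) and OCIAML2 (-0.083 to 0.057). Of EGR2, EGR3, NR4A3 and IER3, 23 pairs had too few reads to be tested; for IER3 the part that mapping in its region has in the 0s was not tested.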
